A study of Homo sapiens with 12 samples.

Results

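The clustered protocadherins are the cadherin-like surface proteins encoded by the alpha, beta and gamma gene arrays on human chromosome 5. Members were every gene whose symbol matched a *PCDHA*, *PCDHB* or *PCDHG* variable-exon gene in both deposited tables. There were 53 of them, 15 alpha, 16 beta and 22 gamma, among 16406 genes listed for iMNs, 19016 listed for i3Ns and 16093 listed for both.

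RNA-seq had been made from 12 libraries of human neurons, 3 in each of 4 groups. iMNs came from a human iPSC line that carries Td-Tomato under the HB9 promoter, were differentiated with small molecules, were isolated by FACS for Td-Tomato and are labelled as motor neurons. i3Ns came from H1, an established human ES cell line, by inducible expression of the transcription factor NGN2, and are labelled as cortical neurons. Cells of each type received lentiviral shRNA, either scrambled (SCR) or directed at *SMN1* and *SMN2* (*SMN*-KD), so that all 4 groups carried an shRNA. The per-library counts were not used here. The value analysed for each gene is the authors' mean normalized count over the 6 libraries of a neuron type, 3 SCR and 3 *SMN*-KD together. It has no standard deviation, it holds no contrast between SCR and *SMN*-KD, and neither the knockdown nor the depth of each library could be checked from it. Each neuron type comes from 1 stem cell line. Everything below is therefore a description of pooled means without a test, and a difference between iMNs and i3Ns cannot be told apart from a difference between stem cell lines, differentiation protocols or tables.

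Clustered protocadherins mediate homophilic recognition between neurites, and neurons use them to tell their own branches from those of other cells. Each variable exon has its own promoter. In many neurons a few promoters are chosen at random, with CTCF and cohesin joining the chosen promoter to a distant enhancer, whereas the C-type members *PCDHAC1*, *PCDHAC2*, *PCDHGC3*, *PCDHGC4* and *PCDHGC5* are expressed more uniformly. A variable exon of the alpha or gamma array is spliced to constant exons that encode the shared cytoplasmic tail, and beta genes encode their protein in 1 exon. In bulk RNA a high level can come from many cells with moderate expression or from few cells with strong expression, and fewer cells of a type and less RNA per cell cannot be told apart.

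In GENCODE release 44 on GRCh38 all members lie on the plus strand of chromosome 5. The alpha array spans chr5:140786136-141012347, the beta array chr5:141051374-141249365 and the gamma array chr5:141330514-141512977. All 15 alpha members end in the same 3 constant exons of 59, 89 and 2721 bases, the last of which lies at chr5:141009627-141012347. All 22 gamma members end in another 3 constant exons of 59, 89 and 2029 bases, the last of which lies at chr5:141510947-141512975. This architecture bears on every level given here. The share of 31-base strings of a transcript found in no other gene was 0.50% to 51.6% for alpha members, 35.1% to 54.9% for gamma members and 37.2% to 92.0% for beta members, so reads of the shared part had to be divided among members by estimation. Antisense genes overlapped 8 alpha, 9 beta and 1 gamma members, and strandedness was not given in the sources used here. At 0.50%, the level of *PCDHA1* is uncertain.

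Members have promoters of their own, so the sequence that members of each array share around their starts is shown for members on which the levels below turn. Whether promoter choice sets these levels was not tested. RefSeq promoters (GRCh38.p14, 250 bases before to 50 after the start) were found for 47 of the 53 members. The motif CGCT, the core of the conserved protocadherin promoter element, occurred on either strand in 46 of those 47 and in 70.0% of all 35116 promoters, so the core alone is common. The 8-base string around it was picked from the members of each array themselves. ATGTCGCT was in 9 of 13 alpha promoters and 0.234% of all promoters, GTGGCGCT in 13 of 14 beta promoters and 1.15% of all, and GCCGCTGT in 11 of 20 gamma promoters and 1.63% of all, on either strand. No member promoter held the string of another array. Capitals mark CGCT within 28 bases.
PCDHA2: gccacatgatgtCGCTgtccaccataga
PCDHA6: gccgcatgatgtCGCTgtctaccatgaa
PCDHA12: gtcacatgatgtCGCTctacactcagaa
PCDHB2: gacgcggggtggCGCTgcagccttagaa
PCDHB5: gacgcctggtggCGCTgcaggctaagag
PCDHB8: gacccgtggtggCGCTgcaggataagaa
PCDHGB4: gactctgggcgcCGCTgttggccaaagt
PCDHGB5: gactctgggcgcCGCTgttggccaaagt
PCDHGB6: gcctctgggcgcCGCTgtcggccagtgc
PCDHGA3: gcctcttagtgtCGCTgttgaccactca
PCDHGA11: ggctctaggcgcCGCTgctcaccaatca

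The PCDHGB6 stretch lies at chr5:141407928-141407955, that of PCDHGB4 at chr5:141387621-141387648 and that of PCDHB5 at chr5:141135183-141135210, all on the plus strand. The core began 38 to 81 bases upstream of the start in the 9 alpha promoters with their string. In the 13 beta promoters with theirs it began between 79 bases upstream and 3 bases downstream, the latter in *PCDHB8*. In the 11 gamma promoters with theirs it began 40 to 220 bases upstream. *PCDHGB4* and *PCDHGB5* had the same 28 bases. *PCDHGA3* and *PCDHGA11* lacked the exact gamma string. The commonest base at each position was taken from the 11 gamma promoters with the string alone, so members without it had no part in it. From these bases the closest stretches of *PCDHGA3* and *PCDHGA11* differed at 8 and 6 of 28 positions. Those of *PCDHGB6*, *PCDHGA8* and *PCDHGC4*, which hold the string, differed at 6, 7 and 10. The closest stretch of *PCDHAC1*, which lacks the alpha string, differed at 15 of 28 positions from the commonest bases of the 9 alpha promoters with it.

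Levels are given as parts per 1000000 (ppm) of a table's summed normalized counts per kilobase of the longest annotated transcript, unless a mean normalized count is named. The median gene stood at 5.77 ppm per kb in iMNs and at 3.996 in i3Ns. The 53 members together summed to 396.9 ppm per kb in iMNs and 354.3 in i3Ns. Single members ranged from 0.023 to 52.0 in iMNs and from 0.023 to 51.4 in i3Ns, and 20 of 53 lay above the table's median in each neuron type. As a share of all member levels, the alpha array held 20.4% in iMNs and 24.2% in i3Ns. The beta array held 39.8% and 32.2%, and the gamma array 39.8% and 43.6%. Alpha was the smallest of the 3 in each neuron type on this scale. Beta and gamma were nearly equal in iMNs, and without the C-type members beta held 43.8% and gamma 41.4% there. With levels divided by coding length instead, alpha held 30.0% and beta 28.8% in i3Ns, so the order of alpha and beta there rests on the length used.

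**Figure D1:**
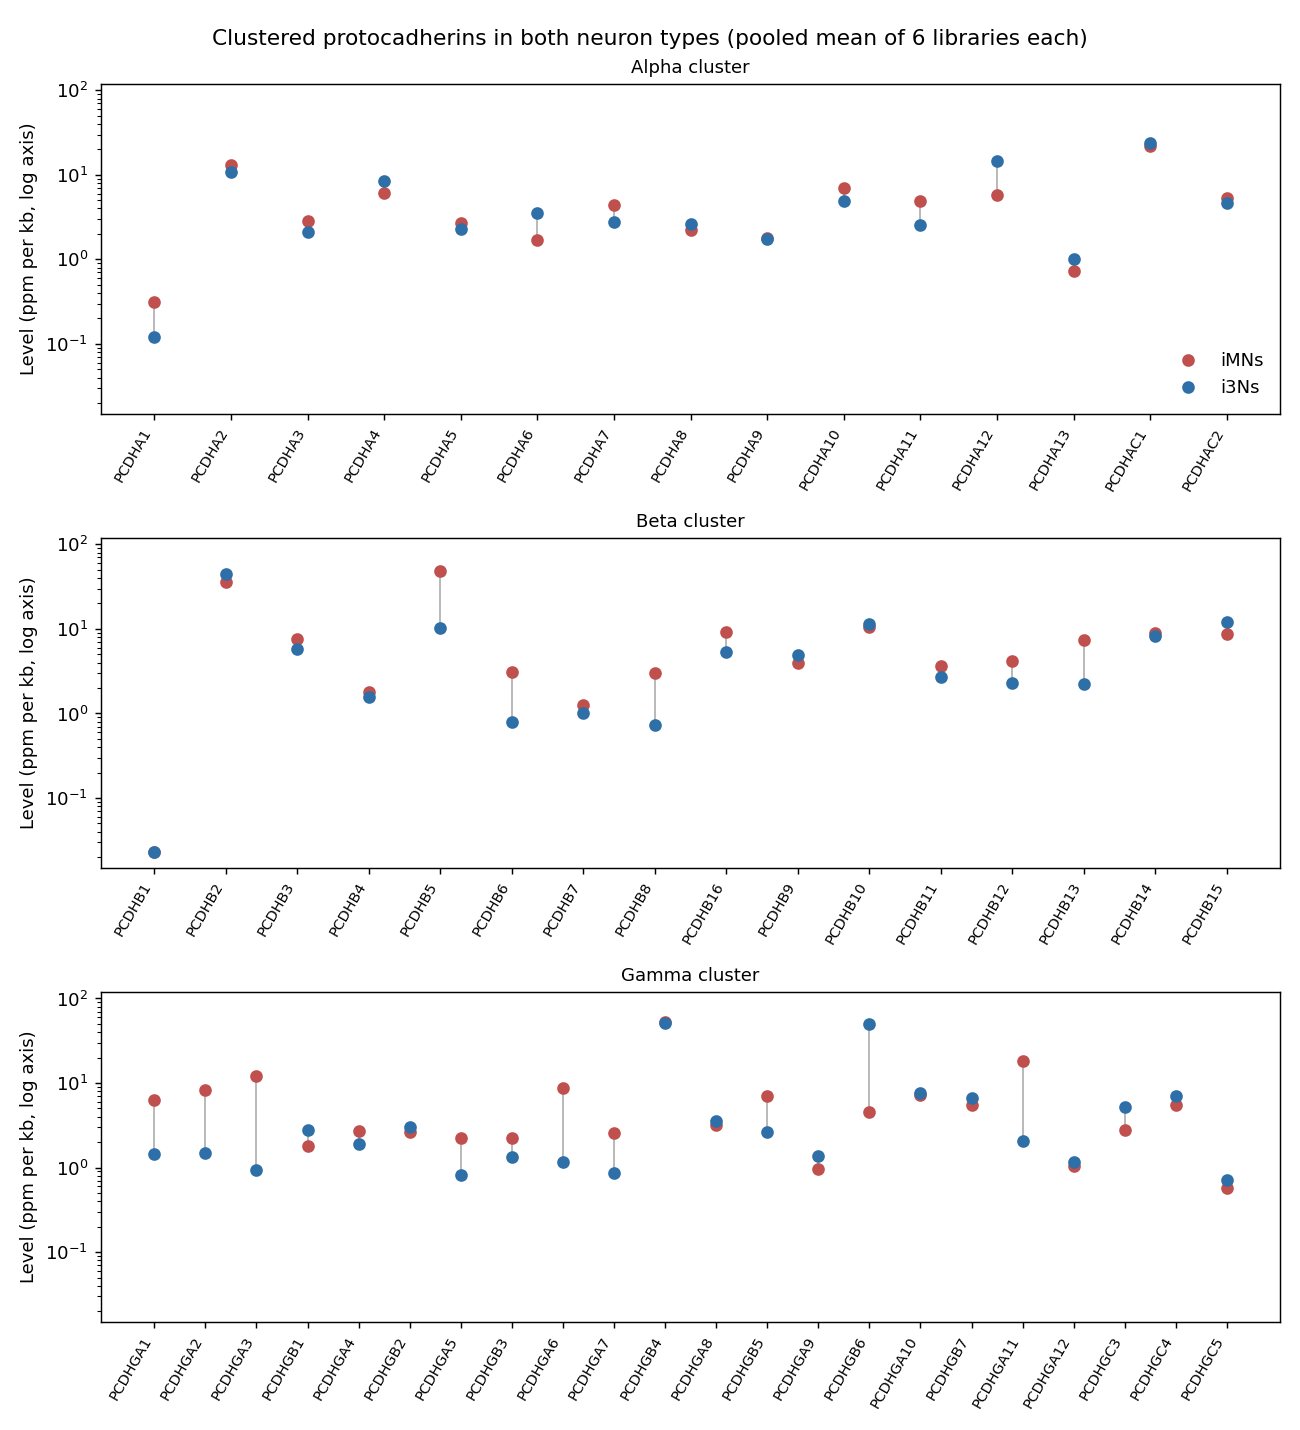
Level of each clustered protocadherin in ppm per kb of the longest transcript (log axis), with members in chromosomal order; each point is the authors' pooled mean of 6 libraries of iMNs (red) or i3Ns (blue), so there are no error bars. *PCDHAC1*, *PCDHB2* and *PCDHGB4* were high in each neuron type, and *PCDHGB6* stood at 4.59 in iMNs and 49.4 in i3Ns.

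The alpha array ranked its members much alike in both neuron types, with *PCDHA12* and *PCDHA6* ranked higher in i3Ns. *PCDHAC1* (ENSG00000248383), a C-type member, led it with 22.0 ppm per kb in iMNs and 23.7 in i3Ns, 27.2% and 27.6% of the array. *PCDHA2*, an alternate member at the 5′ end of the array, was next in iMNs with 13.1 and stood at 10.8 in i3Ns. *PCDHA10*, which followed it in iMNs, was at 6.97 in iMNs and 4.86 in i3Ns. Its longest transcript has 12358 bases against 5409 for the MANE Select transcript, and on MANE length the values were 15.9 and 11.1. *PCDHA4* has the same difficulty, with 6.08 in iMNs and 8.43 in i3Ns on the longest transcript but 11.9 and 16.6 on MANE length. These 2 genes therefore have no firm rank.

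Of the 15 alpha members 2 were at least 2-fold higher in i3Ns, where 10.1% of all genes were. At least 2-fold higher in iMNs was 1, where 14.5% of all genes were, and 12 were within 2-fold, where 75.4% were. *PCDHA12* stood at 5.73 ppm per kb in iMNs and 14.8 in i3Ns, a 2.58-fold ratio. On MANE length it stood at 14.9 in i3Ns, below *PCDHA4*. *PCDHA6* stood at 1.69 and 3.58, a ratio of 2.12. With each table scaled to its median gene, the ratios of *PCDHA12* and *PCDHA6* were 4.07 and 3.35. On that scale 4 of the 13 alternate alpha members were at least 2-fold higher in i3Ns, where 30.5% of all genes were. None was in iMNs, where 7.64% of all genes were. *PCDHA1*, the lowest alpha member, was at 0.31 in iMNs and 0.12 in i3Ns, with mean normalized counts of 73.1 and 29.3. The remaining alternate members (*PCDHA3*, *PCDHA5*, *PCDHA7*, *PCDHA8*, *PCDHA9*, *PCDHA11* and *PCDHA13*) lay between 0.73 and 4.97 in iMNs and between 1.002 and 2.73 in i3Ns, with *PCDHA13* the lowest of them in each type. The ranks of the 15 levels went together between neuron types, with a Spearman rho of 0.87 over genes that share reads and a locus. The effective number of alpha members, the count of equal members that would give the same evenness, was 7.50 in iMNs and 6.96 in i3Ns.

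In the beta array the leading gene was not the same in iMNs and i3Ns. *PCDHB5* (ENSG00000113209) was the highest beta member of iMNs at 48.7 ppm per kb and stood at 10.3 in i3Ns, with mean normalized counts of 7194 and 1579. *PCDHB2* (ENSG00000112852) was at 35.9 in iMNs and led the array in i3Ns at 44.6. *PCDHB5* thus went from 30.9% to 9.03% of the array while *PCDHB2* went from 22.7% to 39.2%. Only 37.2% of the strings of *PCDHB2* were its own, against 74.4% for *PCDHB5*. *PCDHB10* was at 10.5 in iMNs and 11.4 in i3Ns and *PCDHB15* at 8.73 and 11.9, so both stood above *PCDHB5* in i3Ns. *PCDHB14* was at 9.02 and 8.16, *PCDHB16* at 9.18 and 5.41, and *PCDHB3* at 7.53 and 5.83, all above the median gene of each table. *PCDHB4*, *PCDHB9*, *PCDHB11* and *PCDHB12* lay between 1.80 and 4.18 in iMNs and between 1.57 and 4.97 in i3Ns.

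Among beta members, 4 of 16 were at least 2-fold higher in iMNs, where 14.5% of all genes were, and none in i3Ns, where 10.1% were. Beside *PCDHB5*, those higher in iMNs were *PCDHB8* with 2.98 ppm per kb in iMNs and 0.72 in i3Ns, *PCDHB6* with 3.11 and 0.80, and *PCDHB13* with 7.32 and 2.21. *PCDHB5*, *PCDHB6* and *PCDHB8* lie near each other, but *PCDHB7* between the last pair was at 1.26 and 1.005. *PCDHB1* was the lowest clustered protocadherin of all, at 0.023 in each neuron type. Its mean normalized count of 7.87 in iMNs lay close to 7.73, the lowest listed for any gene there, and its count in i3Ns was 8.28, where the lowest was 1.37. It was also the only beta member of 14 whose promoter lacked the beta string. The ranks of the 16 levels had a rho of 0.90 between neuron types, and the effective number was 5.94 in iMNs and 5.10 in i3Ns. The summed beta level in i3Ns was 0.72 times that in iMNs, but 1.14 times when each table was scaled to its median gene. Scaled to the median of genes listed for both types, it was 0.75 times.

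The gamma array differed most in composition. Its sum was 158.0 ppm per kb in iMNs and 154.4 in i3Ns, a ratio of 0.98 that became 1.54 with each table scaled to its median gene and 1.02 with the median of shared genes. Within that sum the 12 gamma A members went from 73.5 in iMNs to 24.4 in i3Ns, 3.02 times lower in i3Ns, and the ratio of i3Ns to iMNs was 0.33 to 0.52 under the scalings tried. The 7 gamma B members had 75.7 in iMNs and 117.2 in i3Ns, a ratio of 1.55 that was 0.95 once *PCDHGB6* was left out. That 0.95 rests on table totals, and scaling each table to its median gene multiplies every ratio by 1.58. The 3 gamma C members had 8.86 and 12.9.

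**Figure D2:**
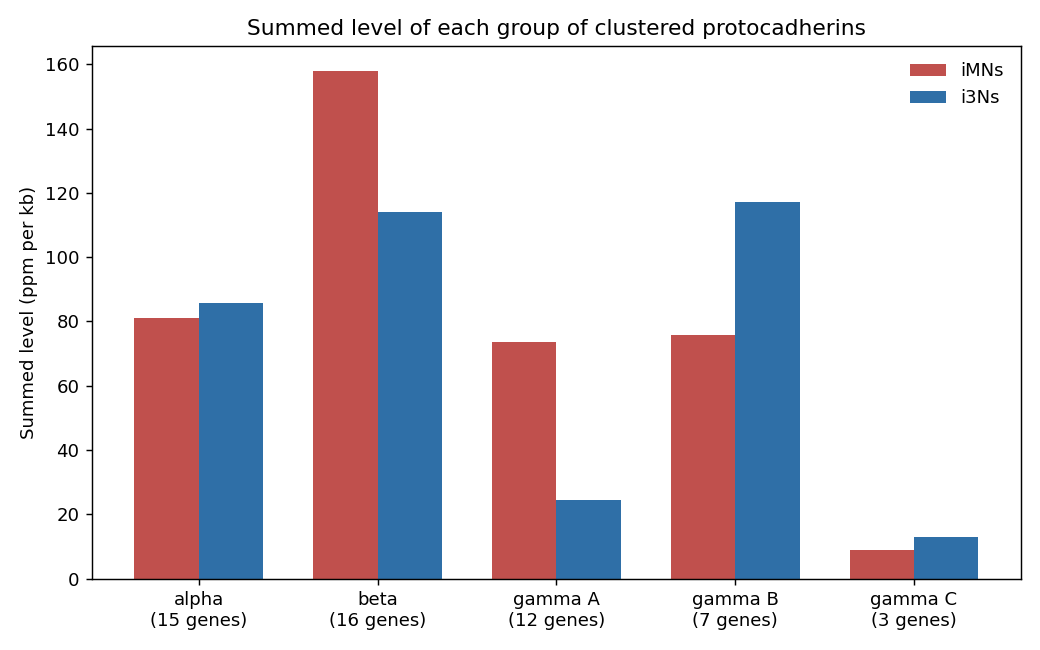
Summed level (ppm per kb of the longest transcript) of the alpha, beta, gamma A, gamma B and gamma C members in iMNs (red) and i3Ns (blue), from the authors' pooled means of 6 libraries each, without error bars. Gamma A had 73.5 in iMNs and 24.4 in i3Ns, and gamma B had 75.7 and 117.2.

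*PCDHGB4* (ENSG00000253953) was the highest clustered protocadherin in each neuron type, at 52.0 ppm per kb in iMNs and 51.4 in i3Ns, with mean normalized counts of 10734 and 11017. It lay at the 94.3rd percentile of all genes in iMNs and at the 95.4th in i3Ns. *PCDHGB6* (ENSG00000253305) was at 4.59 in iMNs, below the median gene, and at 49.4 in i3Ns, near *PCDHGB4*. Its mean normalized counts were 950.2 and 10635, and the ratio of 10.8 was higher than that of 99.1% of the genes in both tables. *PCDHGB4* and *PCDHGB6* together held 65.3% of the gamma level in i3Ns, whereas the top pair of iMNs, *PCDHGB4* and *PCDHGA11*, held 44.4%. The effective number of gamma members was 6.93 in iMNs and 4.49 in i3Ns. *PCDHGB5*, whose promoter stretch is the same as that of *PCDHGB4*, stood at 6.98 and 2.62. *PCDHGB2* was at 2.63 and 3.06 and *PCDHGB3* at 2.21 and 1.32.

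The 4 highest gamma A genes of iMNs were low in i3Ns. *PCDHGA11* (ENSG00000253873) was at 18.2 ppm per kb in iMNs and 2.08 in i3Ns, with mean normalized counts of 3771 and 447.6. *PCDHGA3* (ENSG00000254245) was at 12.1 and 0.94, with mean normalized counts of 2521 and 204.1. The iMN level was 12.8 times that of i3Ns for *PCDHGA3* and 8.76 times for *PCDHGA11*. *PCDHGA6* stood at 8.68 and 1.17, *PCDHGA2* at 8.16 and 1.47, and *PCDHGA1* at 6.34 and 1.45. With *PCDHGA5*, at 2.26 and 0.81, and *PCDHGA7*, at 2.56 and 0.87, these make 7 of 12 gamma A members at least 2-fold higher in iMNs, where 14.5% of all genes were. No gamma A member was 2-fold higher in i3Ns, where 10.1% of all genes were. With each table scaled to its median gene, 5 of the 12 were at least 2-fold higher in iMNs, where 7.64% of all genes were.

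These differences did not run along the whole gamma array as 1 block, though some adjacent members were alike. The log2 ratio of i3Ns to iMNs was -1.47, -0.74, -2.89 and -1.56 for the adjacent *PCDHGA5*, *PCDHGB3*, *PCDHGA6* and *PCDHGA7*. *PCDHGA1*, *PCDHGA2* and *PCDHGA3* are also adjacent, at -2.13, -2.48 and -3.68. *PCDHGB1* and *PCDHGA4*, which follow them, stood at 1.77 and 2.69 ppm per kb in iMNs and 2.77 and 1.92 in i3Ns. *PCDHGA9* and *PCDHGA10*, the neighbours of *PCDHGB6*, were at 0.97 and 7.28 in iMNs and at 1.38 and 7.55 in i3Ns. *PCDHGB7* and *PCDHGA12*, on either side of *PCDHGA11*, were at 5.44 and 1.04 in iMNs and 6.60 and 1.17 in i3Ns. The 31-base strings found in no other gene made up 47.5% of *PCDHGB6*, 52.0% of *PCDHGA11* and 41.5% of *PCDHGA3*. The ranks of the 22 gamma levels had a rho of 0.38 between neuron types, against 0.87 for the alpha and 0.90 for the beta array. Over 15481 genes with a length in both tables rho was 0.915, but these span a wider range of levels.

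**Figure D3:**
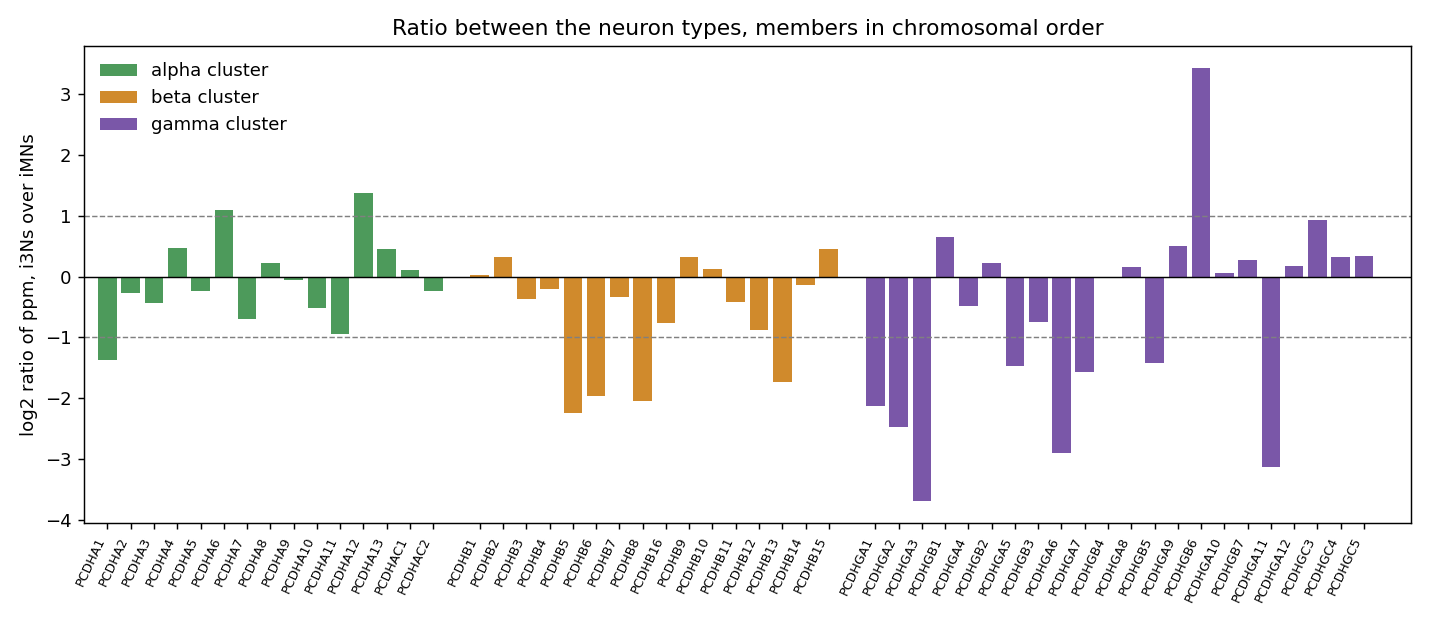
log2 ratio of ppm, i3Ns over iMNs, for each member in chromosomal order, coloured by array, from pooled means without error bars; dashed lines mark 2-fold. *PCDHGB6* reached 3.43, with its neighbours *PCDHGA9* and *PCDHGA10* at 0.51 and 0.05. *PCDHGA3* reached -3.68, with *PCDHGA2* at -2.48 on 1 side and *PCDHGB1* at 0.64 on the other.

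All 5 C-type members were within 2-fold between neuron types, as were 75.4% of all genes in both tables and 10 of the 13 other alpha members. *PCDHAC2*, whose loss in mice disturbs serotonergic wiring, was at 5.39 ppm per kb in iMNs and 4.58 in i3Ns. *PCDHGC3* was at 2.75 and 5.25, a ratio of 1.91. *PCDHGC4* was at 5.53 and 6.94, and *PCDHGC5*, the lowest gamma member, at 0.57 and 0.72. With each table scaled to its median gene, the ratio of *PCDHGC3* was 3.01, which is past 2-fold. With the median of shared genes that ratio was 1.99.

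Set against all genes, 3 of 53 members, or 5.66%, were at least 2-fold higher in i3Ns, where 10.1% of the 16093 genes in both tables were. At least 2-fold higher in iMNs were 13 of 53 members, or 24.5%, where 14.5% of all genes were. By array the latter were 1 of 15 alpha, 4 of 16 beta and 8 of 22 gamma members. The median log2 ratio was -0.23 for the 53 members and 0.01 for all genes. Past 10-fold in either direction were *PCDHGB6* and *PCDHGA3*, 2 of 53, where 2.99% of all genes were. With each table scaled to its median gene *PCDHGB6* alone was, where 3.06% of all genes were. That scaling moved every log2 ratio up by 0.66. The counts became 9 members at least 2-fold higher in i3Ns, where 30.5% of all genes were, and 9 higher in iMNs, where 7.64% were. With the median of shared genes the log2 ratios moved up by 0.058, and the counts stayed at 3 and 13.

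**Figure D4:**
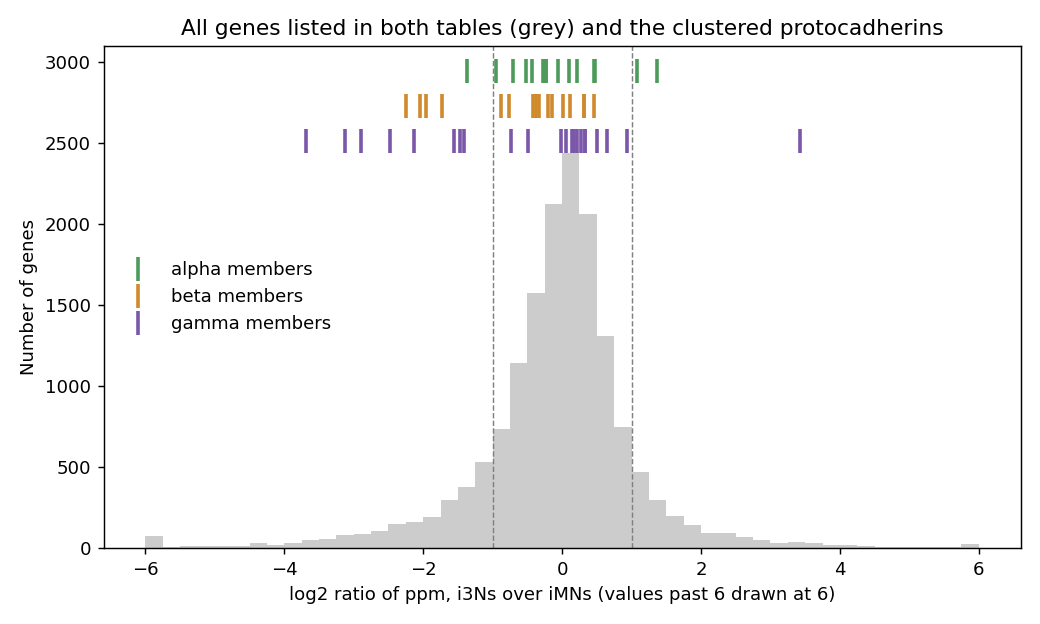
Number of genes (grey bars) by log2 ratio of ppm, i3Ns over iMNs, for the 16093 genes in both tables, with each alpha, beta and gamma member as a coloured tick; dashed lines mark 2-fold. Most members lie within 2-fold, and 13 of the 16 outside it lie on the iMN side.

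The genes that select and silence protocadherin promoters were all listed. Of 13 such genes, 11 were within 2-fold between neuron types, as were 75.4% of all genes. With each table scaled to its median gene 7 of the 13 were, against 61.9% of all genes, and the other 6 were higher in i3Ns. *CTCF*, whose protein binds the protocadherin promoters, stood at 9.53 ppm per kb in iMNs and 17.5 in i3Ns, a ratio of 1.83. *RAD21*, a cohesin subunit, was at 21.7 and 29.6, and *SMC1A*, another subunit, at 30.6 and 14.5. *DNMT3A*, a de novo DNA methyltransferase, was at 9.29 and 20.6, whereas *DNMT3B* went the other way, at 2.31 and 1.55. *SMCHD1*, a chromatin protein that represses the clusters, was at 14.3 and 15.6. Among the signalling and cleavage partners, *PTK2*, the focal adhesion kinase, was at 24.2 and 29.8, and *ADAM10*, a membrane protease, at 9.06 and 14.6.

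Related adhesion genes outside the arrays were listed as well. Of the 10 delta protocadherins, which lie singly elsewhere in the genome, 1 was at least 2-fold higher in i3Ns, 3 were in iMNs and 6 were in between. The shares were 10%, 30% and 60%, where 10.1%, 14.5% and 75.4% of all genes were. *PCDH11X* stood at 33.1 ppm per kb in iMNs and 8.10 in i3Ns, *PCDH19* at 16.9 and 4.55, *PCDH8* at 7.97 and 2.53, and *PCDH20* at 0.42 and 1.24. Of 6 classical cadherins, 5 were within 2-fold, or 83.3%, where 75.4% of all genes were. Among them was *CDH2*, N-cadherin, at 160.4 and 141.3. *CDH11* was at 5.09 and 13.1. With each table scaled to its median gene, 2 delta protocadherins were at least 2-fold higher in i3Ns and 2 in iMNs, where 30.5% and 7.64% of all genes were. On that scale 5 of 6 classical cadherins were within 2-fold, where 61.9% of all genes were.

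The neuron type labels were set against their markers. Pan-neuronal genes were high in each type, with all 6 above the median gene. *TUBB3*, neuronal tubulin, stood at 266.1 ppm per kb in iMNs and 307.2 in i3Ns, and *STMN2* at 983.5 and 981.0. Past 2-fold were *NEFL*, neurofilament light chain, at 769.8 in iMNs and 2167 in i3Ns, and *SYN1*, synapsin, at 174.5 and 52.9. Of the 5 glutamatergic genes, 4 lay above the median gene in i3Ns and none in iMNs. *SLC17A7*, a vesicular glutamate transporter, was at 0.39 in iMNs and 48.9 in i3Ns, and *SLC17A6* at 3.74 and 68.1. *NEUROD1*, a neurogenic transcription factor, was at 0.57 and 24.9, *NEUROD2* was listed for i3Ns alone, at 4.32, and *NEUROG2* was at 2.65 in iMNs and 1.10 in i3Ns. Motor neuron markers did not separate the types as the labels would have it. The cholinergic genes *SLC5A7* and *SLC18A3* were higher in iMNs, at 37.8 against 10.6 and 29.8 against 17.2, and *CHAT* was at 2.32 and 2.21. The motor neuron transcription factors were higher in i3Ns. *MNX1*, which encodes HB9, was at 4.54 in iMNs and 23.2 in i3Ns, *ISL1* at 16.0 and 132.6, *ISL2* at 0.89 and 43.1, and *LHX3* at 0.11 and 1.65. Their part in the protocadherin differences was not tested.

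Markers of other cells also moved with neuron type. The proliferation genes *MKI67* and *TOP2A* were at 0.051 and 0.091 ppm per kb in iMNs and 0.91 and 1.21 in i3Ns, and *CDK1* was listed for i3Ns alone. Of the 3 pluripotency genes, *POU5F1* and *NANOG* were listed for i3Ns alone, at 0.135 and 0.033, and *LIN28A* was at 1.25 in iMNs and 23.5 in i3Ns. *NANOG*, with a mean normalized count of 7.727, lay under 7.732, the lowest listed for iMNs, so its absence there shows no difference. The astroglial genes *GFAP* and *AQP4* and the serotonergic gene *FEV* were in neither table, *TPH2* was at 0.061 in iMNs, and *SLC6A4* was at 0.0085 in i3Ns. The mean normalized count of *SLC6A4*, 2.53, also lay under the lowest listed for iMNs. *SLC1A3* was at 0.155 and 0.068, and *S100B* was listed for iMNs alone, at 0.62. Of the 5 mesenchymal genes, *COL1A1* was at 5.16 and 15.9 and *PDGFRB* at 0.125 and 1.07, whereas *COL1A2* was at 2.64 and 2.26. Their part in the protocadherin levels was not tested either.

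**Figure D5:**
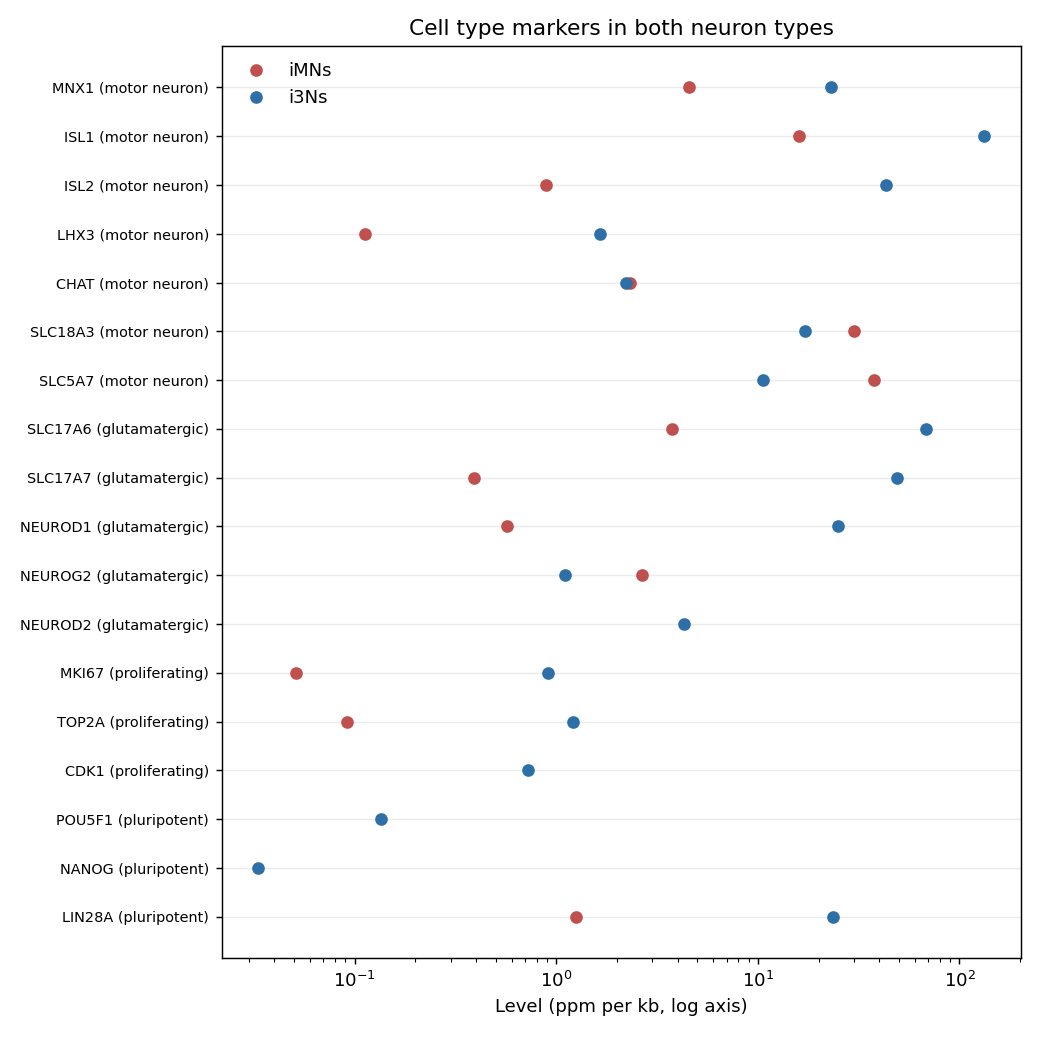
Level (ppm per kb of the longest transcript, log axis) of motor neuron, glutamatergic, proliferation and pluripotency markers in iMNs (red) and i3Ns (blue), pooled means of 6 libraries each; a missing point was not listed. *MNX1*, *ISL1*, *ISL2* and *LHX3* lie to the right in i3Ns, and *SLC5A7* and *SLC18A3* in iMNs.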

How the data were processed

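Total RNA was depleted of ribosomal RNA and sequenced as paired ends. The authors removed adapters with fastp, estimated transcript abundance with Salmon and ran DESeq2 on each neuron type. Versions and the transcript annotation were not given in the sources used here. The submitters' processing notes name hg38 and STAR besides. The deposited signal used here, 1 column in each of 2 tables, is the authors' mean over 6 libraries of counts divided by size factors. The deposited fold changes, standard errors, p-values and adjusted p-values of the authors' own comparison were not used, so tests, replicate errors and SMN-KD effects are not reported here.

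Each mean was divided by the sum of its table (ppm) and by the longest transcript in GENCODE release 44 on GRCh38, found for 95.8% of iMN and 95.4% of i3N genes. The tables had been normalized separately, so ratios between neuron types compare shares of a table. A fold of 2 was used for counts. Genes were named as the top 3 of each array, the lowest, all C-type members and the 5 highest and 5 lowest ratios among members whose mean normalized count reached 100 in either table. Members, marker lists and other lists were chosen with earlier results of these data known. The promoter strings, PCDHB8, PCDHB6, PCDHB13, PCDHGB5, PCDHGA1, PCDHGA5, PCDHGA7 and neighbouring genes were chosen after their values were seen. The alternatives changed the length, the scale, the filter and the members summed. The functions were tested on simulated data. Python 3.11.15, numpy 2.4.6 and pandas 2.3.3 were used. Depth per library is unknown, so no interval is given. Of the genes in the other lists, 1 is not reported here.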

Additional observations from a re-analysis of the deposited data

How the results depend on the processing

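No paired analysis was possible because each deposited column used is a mean over all libraries of a neuron type, and for the same reason no replicate could be left out. Scaling each table to its median gene turned the ratio of i3Ns to iMNs from 0.72 to 1.14 for the beta array and from 0.98 to 1.54 for the gamma array. It also moved the alpha ratio from 1.06 to 1.67 and the count of members at least 2-fold higher in i3Ns from 3 to 9. The lists differ in length, with 16406 genes down to a mean normalized count of 7.73 in iMNs and 19016 down to 1.37 in i3Ns. Scaling to the median of shared genes, added after the data had been seen, gave 1.10 for alpha, 0.75 for beta and 1.02 for gamma. It left 3 members at least 2-fold higher in i3Ns and 13 in iMNs. Leaving out PCDHGB6, also added then and done on table totals only, gave 0.95 for gamma B members in place of 1.55. The array shares stayed within 1.5 times their values under all 7 alternatives tried for them. Of these, keeping members listed for both types could change nothing, since all members are. There were 53 members listed, with 50 to 52 left by the count filters of 10 and 100. Shares of PCDHA4 and PCDHA10 in their array moved past 1.5 times with the length chosen. Members with few reads of their own, such as PCDHA1, and those with a mean normalized count under 100, 2 in iMNs and 3 in i3Ns, are the least precise.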

Other observations

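Pseudogenes inside the arrays were listed in both tables. The beta pseudogenes had mean normalized counts of 178.2 in iMNs and 64.8 in i3Ns for PCDHB17P, 427.2 and 114.3 for PCDHB18P, and 248.3 and 83.8 for PCDHB19P. The gamma pseudogenes stood at 152.2 in iMNs and 220.6 in i3Ns for PCDHGB8P and at 88.3 and 164.3 for PCDHGB9P. TAF7, a subunit of the general transcription factor TFIID whose gene lies between the beta and gamma arrays on the minus strand, was at 5272 in iMNs and 6120 in i3Ns. Its neighbour SLC25A2, a mitochondrial carrier, was listed for i3Ns alone, at 4.23, which lies under the lowest mean listed for iMNs, 7.73.

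Levels were also set against the exact promoter string of each array. The 11 gamma members with GCCGCTGT had a median of 4.59 ppm per kb in iMNs and 3.57 in i3Ns, and the 9 without it had 5.44 and 1.47. The string was absent from the promoters of PCDHGA2, PCDHGA3, PCDHGA5, PCDHGA6 and PCDHGA11, and it was present in those of PCDHGA1, PCDHGA7 and PCDHGB5. These are the 8 gamma members at least 2-fold higher in iMNs. It was also absent from the promoters of PCDHGA4, PCDHGB2, PCDHGB3 and PCDHGB7, which were within 2-fold. Absent here means without an exact match, not without a like stretch. The closest stretches of PCDHGA2, PCDHGA5 and PCDHGA6 differed at 5 of 28 positions from the commonest bases of the promoters with the string. Those of PCDHGA3 and PCDHGA11 differed at 8 and 6, and those of members with the string at 3 to 10. The 9 alpha members with ATGTCGCT had medians of 4.46 and 3.58, and the 4 without it had 5.18 and 3.58. The strings were chosen from these promoters, so the values are a description.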
